A study of Mus musculus with 6 samples.

Results

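Mast cells and basophils are granulated cells that release preformed and newly made mediators when antigen cross-links IgE on their surface. The 10 genes described here encode part of that equipment: the granule protease Cpa3, the histamine-making enzyme Hdc, the amine carrier Slc18a2, the membrane transporter Slc45a3, the IgE receptor chains Ms4a2 and Fcer1a, the surface receptors Cd200r3 and Il1rl1, the small GTPase Rab38 and the transcription factor Mitf. They were taken as a list of named genes, chosen with earlier results of these data known. All 10 were found once each by Ensembl identifier among the 24815 genes listed in each library. Every value compares homozygous mutant with wild-type cells.

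The mast cell and basophil lineages arise in bone marrow and fetal liver from Kit-positive myeloid progenitors. GATA2 is a zinc finger transcription factor that these lineages need, and together with GATA1 it binds short GATA words beside many of their effector genes. MITF, a basic helix-loop-helix factor of the MiT family, binds E-box words and is required for mast cell development in the mouse. The sorted progenitors are not mature mast cells, and each library is a bulk population, so fewer cells of a type and less RNA per cell cannot be told apart.

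RNA was sequenced from common myeloid progenitors isolated at E13.5, a midgestation embryonic day, from C57BL/6 fetal liver. The 3 mutant libraries (C, D and Q) had the genotype -77-/-, a homozygous deletion of an enhancer that lies far upstream of Gata2, and the 3 wild-type libraries (A, F and L) carried no deletion. The deletion was carried by the whole embryo and not by progenitors alone. Cells of both groups were sorted as lineage-negative (a cocktail that included CD41 and CD48), CD34-positive, c-Kit-positive, Sca-1-negative and low for Fc receptor. Whether each library is a separate embryo or litter is not stated in the labels, so a p-value here reflects the spread among 3 libraries a group, which may be technical.

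The mutant libraries held 14800563 to 30596279 expected counts and the wild-type libraries 14473913 to 21509720. Mutant C stood apart: ribosomal protein genes took 20.6% of its counts, against 6.32% to 8.61% in the other 5 libraries, and its counts lay on transcripts of 1795 bases on average, against 2826 to 3113. Correlations of log2 CPM (counts relative to library size, adjusted by TMM) across genes were 0.88 to 0.923 between mutant C and the others. Results are therefore given with and without it. Levels are deposited TPM (transcript abundance corrected for gene length and scaled to the same total), and CPM stands where counts matter. Of the positive gate genes, Cd34 had 322.77, 752.03 and 687.36 TPM in mutants C, D and Q, against 585.01, 653.67 and 638.24 TPM in wild-type A, F and L, and Kit had 12.54, 105.84 and 87.36 TPM in the mutants, against 135.85, 123.07 and 113.41 TPM in the wild types, so it was low in mutant C. Ly6a (Sca-1), a negative gate gene, had 1.15 to 3.2 TPM in the mutants, against 1.09 to 2.45 TPM in the wild types. Transcripts of the excluded markers were also counted: Cd48 had 201.37 to 250.65 TPM in the mutants, against 168.68 to 186.09 TPM in the wild types, and Itga2b (CD41) had 1.47 to 4.39 TPM in the mutants, against 14.56 to 23.5 TPM in the wild types. Gata2 itself had 1.85, 9.92 and 9.58 TPM in the mutants, against 53.1, 34.57 and 37.88 TPM in the wild types, a log2 fold change of -2.2 (SE 0.3) that missed the threshold of 0.05 with all libraries (adjusted p = 0.068, edgeR's quasi-likelihood test) and passed it without mutant C (-1.97, SE 0.15, adjusted p = 0.0019).

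The sequence just upstream of the genes was read because the deleted enhancer belongs to a GATA factor gene. RefSeq promoter windows of GRCm38.p6, 250 bases before to 50 bases after a transcript start, were at hand for 9 of the 10 genes, in 13 windows. The GATA words searched were AGATAA or AGATAG and also TGATAA or TGATAG, on both strands. In all, 11 of the 13 windows (84.6%) held at least 1 of them, against 29.8% of all 32851 windows. Base composition differs, since GC content was 38.7% to 66.3% (median 44.7%) in the 13 windows and had a median of 52.7% over all windows. Of the 10705 windows with 50% GC or less and at least 38.7%, 43.7% held a GATA word, and all 7 of the effector gene windows in that range did. The word pair CATGTG and CACGTG, E-box forms that MITF can bind, occurred in 1 window, that of Fcer1a, against 20.4% of all windows. GAGGAA, a core that PU.1 can bind, occurred in 3 windows, against 28.3%. No GATA word overlapped another, although the last 2 GATA words of Cd200r3 stand end to end, and the last of them shares 1 base with a GAGGAA word. A word match is a description of letters and not a bound site.

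The bases upstream of the start are printed for 6 windows, chosen to show the range from 1 GATA word to 5 and the position of the words. Each run reads 5′ to 3′ on the strand of the gene and holds the 250 bases before the start, with GATA words in capitals (capitals that read TTATC or CTATC are the same words on the opposite strand). Cpa3 is at chr3:20242182-20242431 (minus), Hdc at chr2:126618679-126618928 (minus), Ms4a2 at chr19:11623720-11623969 (minus), Cd200r3 at chr16:44943428-44943677 (plus), Il1rl1 at chr1:40429320-40429569 (plus, the first of 2 starts) and Mitf at chr6:97991533-97991782 (plus, the third of 3 starts).
Cpa3: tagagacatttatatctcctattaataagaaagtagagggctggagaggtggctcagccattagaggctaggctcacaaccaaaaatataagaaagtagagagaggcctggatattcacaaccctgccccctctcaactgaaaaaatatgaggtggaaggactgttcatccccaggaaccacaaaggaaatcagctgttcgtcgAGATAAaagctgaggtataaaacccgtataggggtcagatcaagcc
Hdc: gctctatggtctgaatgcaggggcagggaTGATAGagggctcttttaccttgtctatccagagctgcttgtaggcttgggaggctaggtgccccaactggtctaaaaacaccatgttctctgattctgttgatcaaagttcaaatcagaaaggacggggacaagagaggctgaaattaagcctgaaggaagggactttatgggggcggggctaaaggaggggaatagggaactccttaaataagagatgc
Ms4a2: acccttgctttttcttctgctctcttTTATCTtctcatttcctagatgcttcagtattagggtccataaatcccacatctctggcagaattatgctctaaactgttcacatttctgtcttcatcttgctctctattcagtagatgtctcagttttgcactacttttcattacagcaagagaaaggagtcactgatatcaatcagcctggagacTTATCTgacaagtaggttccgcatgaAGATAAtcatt
Cd200r3: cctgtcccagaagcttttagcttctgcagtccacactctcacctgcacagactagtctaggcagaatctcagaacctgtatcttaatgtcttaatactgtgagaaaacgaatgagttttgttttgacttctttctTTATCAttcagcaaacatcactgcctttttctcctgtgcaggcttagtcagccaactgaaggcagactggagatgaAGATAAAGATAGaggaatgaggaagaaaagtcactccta
Il1rl1: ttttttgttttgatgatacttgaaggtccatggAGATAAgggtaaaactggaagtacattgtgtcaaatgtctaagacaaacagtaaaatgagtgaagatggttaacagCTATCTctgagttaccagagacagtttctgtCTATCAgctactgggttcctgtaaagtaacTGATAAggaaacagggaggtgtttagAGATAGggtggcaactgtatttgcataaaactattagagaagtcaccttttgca
Mitf: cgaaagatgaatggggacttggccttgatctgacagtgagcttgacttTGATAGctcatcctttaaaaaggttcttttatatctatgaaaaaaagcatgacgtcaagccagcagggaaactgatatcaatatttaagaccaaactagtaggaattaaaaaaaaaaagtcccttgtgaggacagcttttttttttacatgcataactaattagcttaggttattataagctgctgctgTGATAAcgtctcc
Il1rl1 held the most words, 5 in 1 window, and Ms4a2 and Cd200r3 held 3 each. The Cpa3 word begins 46 bases before the start and the nearest Ms4a2 word 11 bases before it. Slc18a2 held 2 words, Fcer1a held 1, and Slc45a3 held 0 at its first start and 1 at its second. The 3 Mitf starts held 0, 1 and 2. Mitf, whose groups overlapped in TPM, thus held 3 words over its windows, and Slc45a3, with the largest fitted fold change, held 1.

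**Figure D1:**
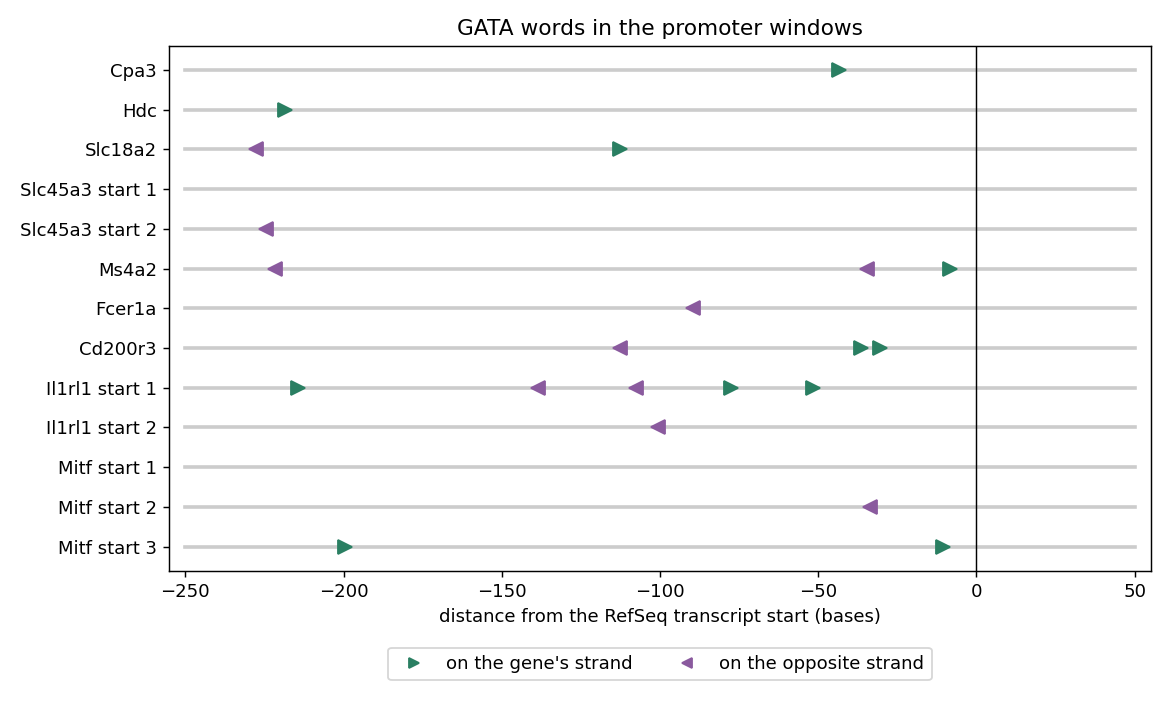
Positions of the 4 searched GATA words in the RefSeq promoter windows of 9 effector genes. The horizontal axis gives the distance from the transcript start in bases, each grey line is 1 window, and triangles point by strand; Il1rl1 start 1 holds 5 words, and the first starts of Slc45a3 and Mitf hold none.

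Wild-type progenitors expressed the genes over a wide range of levels. On the TPM scale Cpa3 was highest at 93.6 ± 4.03 (SD, n = 3, as for each mean here), followed by Hdc at 37.9 ± 15.2, Rab38 at 29.3 ± 0.695, Il1rl1 at 10.8 ± 2.47, Slc18a2 at 10.3 ± 2.81, Slc45a3 at 6.36 ± 2.61, Ms4a2 at 6.21 ± 4.49, Cd200r3 at 2.85 ± 0.531 and Mitf at 2.48 ± 0.31. Cpa3 did not overlap Hdc, whereas Hdc and Rab38, Il1rl1 and Slc18a2, Slc18a2 and Slc45a3, Slc45a3 and Ms4a2, and Cd200r3 and Mitf overlapped as neighbours in that order. In mutant progenitors the order differed: Rab38 was highest at 14.3 ± 0.16, then Cpa3 at 4.78 ± 0.18, Hdc at 3.35 ± 0.841, Slc18a2 at 1.87 ± 1.08 and Mitf at 1.63 ± 1.05. The 10 genes summed to 22.8, 29.2 and 28 TPM in mutants C, D and Q, against 228, 187 and 185 TPM in wild-type A, F and L, and Cpa3 alone made up 15.9% to 21.8% of the sum in mutants and 39.6% to 52.9% in wild type.

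**Figure D2:**
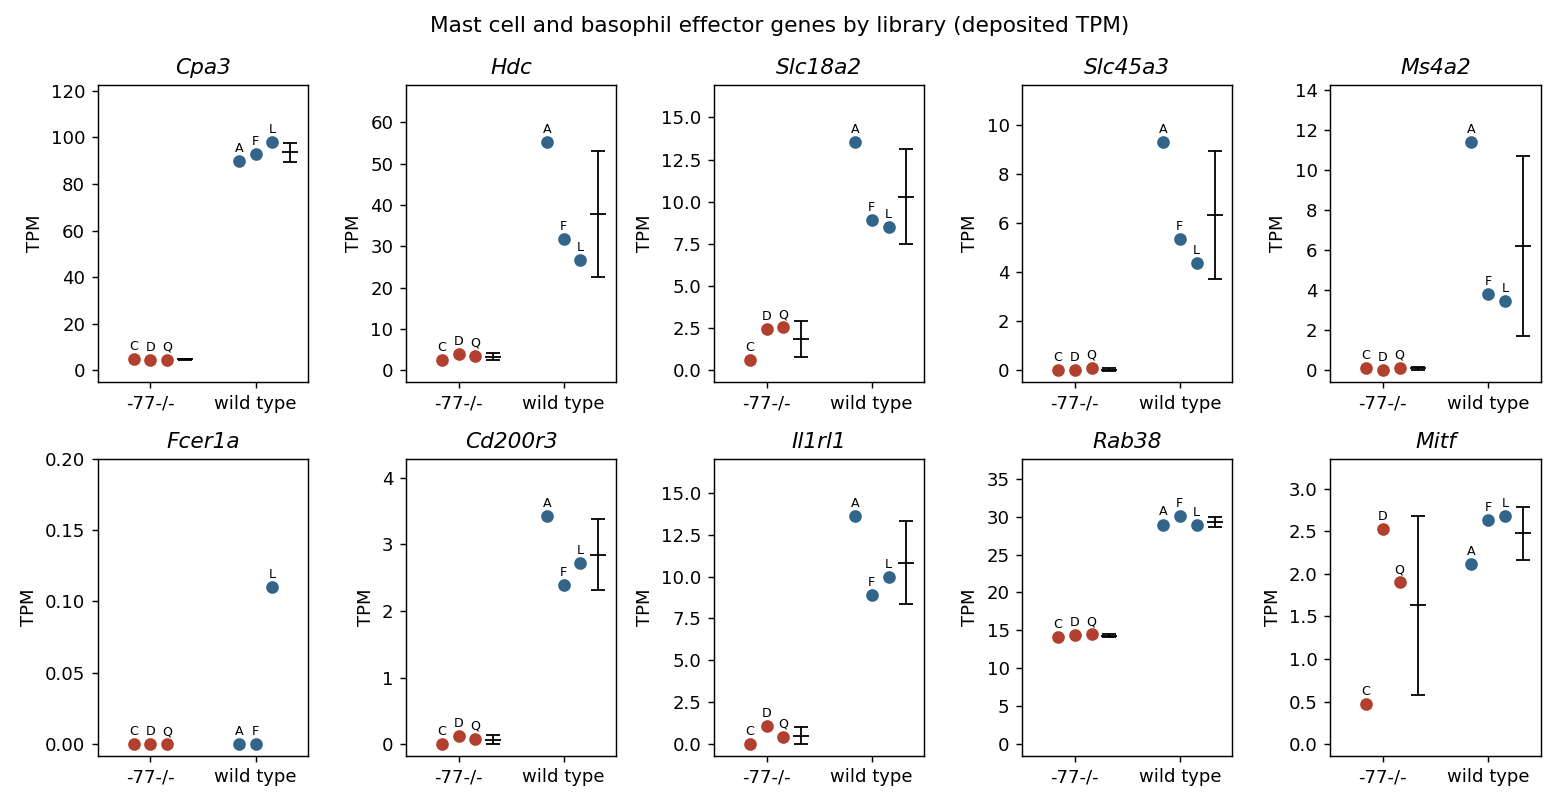
Deposited TPM of the 10 effector genes in each library, with -77-/- libraries (C, D, Q) left of wild type (A, F, L). Points are libraries and the bars beside them mark the mean and SD (n = 3); 8 genes have mutant libraries all below the wild-type ones, Mitf overlaps, and Fcer1a is listed at 0 in every library except wild-type L.

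Slc45a3 passed the test with all libraries, and Cpa3, Hdc and Slc18a2 passed it without mutant C. Cpa3 encodes carboxypeptidase A3, a secretory granule exopeptidase that is an early marker of the mast cell lineage (chr3:20215620-20242181, minus strand). It had 4.98, 4.64 and 4.71 TPM in mutants C, D and Q, against 90.02, 92.82 and 97.96 TPM in wild-type A, F and L. The groups did not overlap, and the mutant mean was 5.1% of the wild-type mean. Its log2 fold change was -3.51 (SE 0.48, 11.4-fold lower, adjusted p = 0.072, edgeR's quasi-likelihood test) with all libraries and -4.18 (SE 0.13, 18.1-fold lower, adjusted p = 4.8e-05) without mutant C. Over the 13 alternatives its adjusted p ran between 2.2e-10 and 0.35. In CPM mutant C had 11, against 3.49 and 3.97 in mutants D and Q, so the larger SE of the first fit goes with 1 library. The Cpa3 locus also holds Mir7007 on the same strand, which these counts cannot separate from it.

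Hdc encodes histidine decarboxylase, the enzyme that makes histamine (chr2:126593667-126619299, minus). It had 2.43, 4.08 and 3.54 TPM in mutants C, D and Q, against 55.2, 31.86 and 26.61 TPM in wild-type A, F and L. The groups did not overlap, with wild-type A above the other wild types. Its log2 fold change was -2.85 (SE 0.35, 7.19-fold lower, adjusted p = 0.054) with all libraries and -3.17 (SE 0.28, 9-fold lower, adjusted p = 0.0038) without mutant C, by edgeR's quasi-likelihood test, and adjusted p ran between 2.9e-11 and 0.32 over the alternatives.

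Slc18a2 encodes VMAT2, the carrier that loads amines such as histamine and serotonin into granules (chr19:59260896-59296012, plus). It had 0.62, 2.43 and 2.56 TPM in mutants C, D and Q, against 13.54, 8.9 and 8.48 TPM in wild-type A, F and L. Groups did not overlap, and mutant C was the lowest library. It was lower by a log2 fold change of -2.03 (SE 0.24, 4.08-fold, adjusted p = 0.054) with all libraries and of -1.89 (SE 0.19, 3.71-fold, adjusted p = 0.0065) without mutant C, by edgeR's quasi-likelihood test, with a range of 9.5e-10 to 0.33 over the alternatives. Among Cpa3, Hdc, Slc45a3 and Slc18a2, the fitted change was smallest for Slc18a2. An antisense gene, Gm29261, overlaps it, and the strand of counting is not given in the sources used here.

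Slc45a3, a transporter of the SLC45 sugar carrier family that is known in prostate as prostein and is also transcribed by mast cells and basophils (chr1:131962967-131982969, plus), was the 1 gene that passed the test with all 6 libraries, and it fell. It was listed at 0, 0 and 0.12 TPM in mutants C, D and Q, with 0, 0 and 3 expected counts, against 9.32, 5.35 and 4.4 TPM with 350, 103 and 118 expected counts in wild-type A, F and L. Over the summed counts the mutant level was 0.489% of the wild-type level, with an exact 95% binomial interval of 0.1% to 1.44% that covers counting error only. The fitted log2 fold change was -7.44 (SE 0.74, adjusted p = 0.033, edgeR's quasi-likelihood test), a value that depends on the prior count where counts are so low: it was -10.34 without mutant Q, the 1 mutant library with a count, and -2.77 on the log2(TPM + 1) scale. Without mutant C it was -7.24 (SE 0.71, adjusted p = 0.0065; 5.7e-12 to 0.24 over the alternatives, edgeR's quasi-likelihood test, limma and DESeq2). The call was lost when mutant D, mutant Q or any single wild-type library was left out (adjusted p between 0.14 and 0.24, edgeR's quasi-likelihood test). In each of those fits 0 genes were called over all genes tested, so the loss is not particular to Slc45a3. Gm29103 overlaps the gene on the same strand.

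The IgE receptor is a complex of an alpha chain that binds IgE (Fcer1a), a beta chain that amplifies the signal (Ms4a2) and a pair of gamma chains that carry the signal (Fcer1g). Ms4a2 (chr19:11615523-11623719, minus) had 0.12, 0.04 and 0.14 TPM in mutants C, D and Q, against 11.39, 3.8 and 3.44 TPM in wild-type A, F and L. Every mutant library lay below every wild-type library, and wild-type A was 2.61 times the mean of F and L in CPM. The counts were 4, 1 and 4 in the mutants and 220, 52 and 58 in the wild types, so the summed mutant level was 2.54% of wild type (exact 95% binomial interval 1.15% to 4.87%, counting error only). Its log2 fold change was -5.01 (SE 0.77, adjusted p = 0.11) with all libraries and -5.74 (SE 0.74, adjusted p = 0.016) without mutant C, by edgeR's quasi-likelihood test, with adjusted p between 1.0e-07 and 0.45 over the 13 alternatives. Without wild-type A the log2 fold change was -4.36.

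Fcer1a (chr1:173221284-173227214, minus) was listed at 0 in all 3 mutants and in wild-type A and F, and at 0.11 TPM, 1 expected count, in wild-type L. It was below the filter and no fold change is given, since a count of 0 allows up to 3 counts in each library, or 0.33, 0.143 and 0.093 CPM in mutants C, D and Q and 0.119, 0.189 and 0.178 CPM in wild-type A, F and L. The alpha chain was therefore at or under the detection floor in both groups, while the beta chain was clearly counted in wild type. Fcer1g, which other myeloid cells use as well, had 225.73, 150.84 and 135.04 TPM in the mutants, against 127.17, 126.02 and 131.33 TPM in the wild types, and its difference did not pass the test (log2 fold change 1.38, SE 0.61, adjusted p = 0.58 with all libraries; 0.29, SE 0.08, adjusted p = 0.27 without mutant C, edgeR's quasi-likelihood test).

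Both other surface receptors were lower. Cd200r3 encodes an activating receptor of the CD200 receptor family found on basophils and mast cells (chr16:44943678-44981380, plus). It had 0, 0.13 and 0.08 TPM in mutants C, D and Q, against 3.43, 2.39 and 2.72 TPM in wild-type A, F and L. There was no overlap, and the log2 fold change was -3.88 (SE 0.51, 14.7-fold lower, adjusted p = 0.068) with all libraries and -3.6 (SE 0.36, 12.1-fold lower, adjusted p = 0.0065) without mutant C, by edgeR's quasi-likelihood test, with a range of 4.4e-08 to 0.42 over the alternatives. RSEM averaged its length over 9 transcripts, to 1418, 3659 and 3876 bases in mutants C, D and Q. In wild-type A, F and L the length was 1797, 2088 and 1623 bases. The mutant lengths rest on 0, 5 and 6 counts, and a longer length lowers TPM. The mutant mean was 2.46% of the wild-type mean in TPM and 5.51% in CPM.

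Il1rl1 encodes ST2, the receptor chain for the alarmin IL-33 (chr1:40429570-40465415, plus). Its levels were 0.03, 1.06 and 0.46 TPM in mutants C, D and Q, against 13.62, 8.91 and 9.97 TPM in wild-type A, F and L. The mutants ranged widely among themselves but stayed below every wild-type library. Its log2 fold change was -4.1 (SE 0.51, 17.2-fold lower, adjusted p = 0.054) with all libraries and -3.8 (SE 0.26, 13.9-fold lower, adjusted p = 0.0014) without mutant C, by edgeR's quasi-likelihood test, with a range of 4.3e-14 to 0.35 over the alternatives. RSEM averaged its length over 5 transcripts, to 5053, 2886 and 4473 bases in mutants C, D and Q and 3780, 3283 and 3491 bases in the wild types. The mutant lengths rest on 2, 34 and 39 counts.

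Rab38 and Mitf differed less between the groups. Rab38, a small GTPase that sorts cargo to lysosome-related organelles such as melanosomes and secretory granules (chr7:88430273-88491572, plus), had 14.16, 14.34 and 14.48 TPM in mutants C, D and Q, against 28.96, 30.11 and 28.86 TPM in wild-type A, F and L. In TPM the groups stood apart, with a mutant mean at 48.9% of wild type and a spread that was small in both groups. In CPM they overlapped, because mutant C had 31.7 CPM, against 10.9 and 12.4 in mutants D and Q and 19.4, 22.8 and 22.3 in the wild types. The log2 fold change was -0.25 (SE 0.42, adjusted p = 0.74) with all libraries and -0.89 (SE 0.12, 1.85-fold lower, adjusted p = 0.017) without mutant C, by edgeR's quasi-likelihood test, with a range of 0.0015 to 0.99 over the alternatives. Without mutant D it was 0.02, so the direction in counts turned on which library was left out. Its transcript, of 1471 bases, is among the shorter of the 10, and the part that the length shift of mutant C plays in its counts was not tested. An antisense gene, Gm15661, overlaps it.

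Mitf (chr6:97807052-98021349, plus) had 0.47, 2.52 and 1.9 TPM in mutants C, D and Q, against 2.12, 2.63 and 2.68 TPM in wild-type A, F and L. The groups overlapped, and the log2 fold change was -0.19 (SE 0.28, adjusted p = 0.7) with all libraries and 0 (SE 0.2, adjusted p = 1) without mutant C, by edgeR's quasi-likelihood test. With gene length offsets it was 0.08. A p that misses the threshold does not show equal levels. Mitf is transcribed from several starts, and gene-level counts do not tell its isoforms apart. Gm15531 lies antisense to it.

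**Figure D3:**
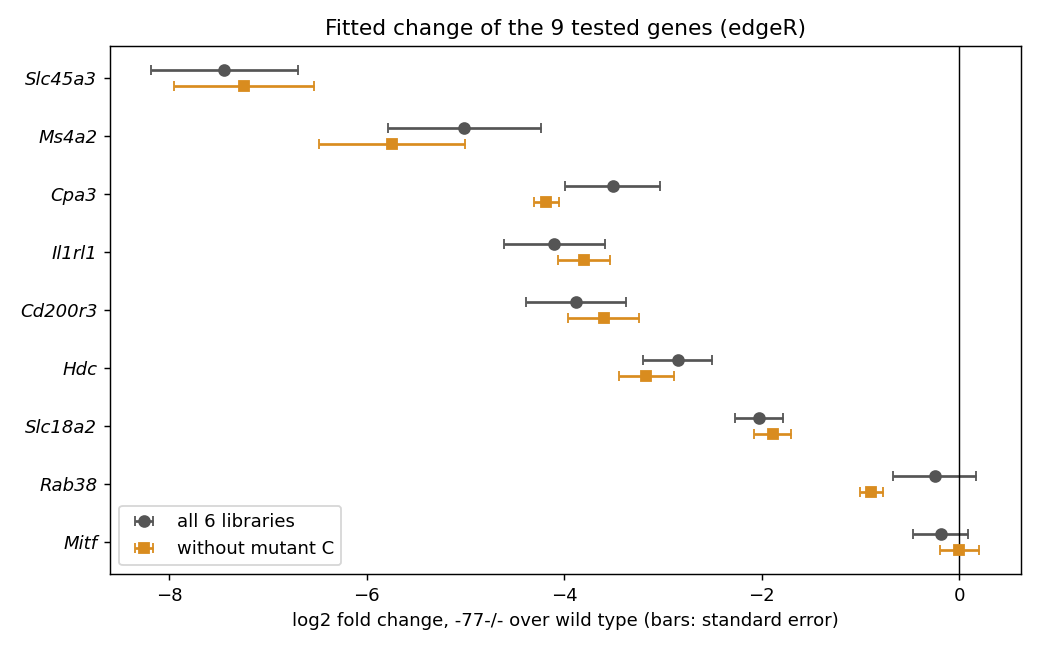
Fitted log2 fold change (-77-/- over wild type) of the 9 tested effector genes, with all 6 libraries (circles) and without mutant C (squares); bars are standard errors. Mitf and, with all libraries, Rab38 lie near 0, and the other 7 lie between -7.44 and -1.89.

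Counted together, 9 of the 10 genes passed the filter on low counts, and 4 of these passed through wild-type libraries (Slc45a3, Ms4a2 and Cd200r3 had no mutant library over the cutoff, and Il1rl1 had 2), so their passing is tied to the difference. With all libraries 1 of 9 (Slc45a3) was called lower by edgeR's quasi-likelihood test, beside 0.147% of all 12222 genes tested, and 7 of 9 had an unadjusted p under 0.05, beside 587 of the 12222 genes (4.8%). None was called higher, beside 0.00818% of genes. Without mutant C, 8 of 9 were called lower, all but Mitf, beside 0.761% of 12614 genes. The genes were chosen with earlier results of these data known, so the shares over all genes are a description and not a test of the list. DESeq2 with all libraries called 7 of 10, beside 0.532% of the 18406 genes with an unadjusted p. Fcer1a, with 1 count, was among the 10 but had no adjusted p, so it could not be called. Limma-voom called 4 of 9, beside 0.254%, and voom with quality weights 8, beside 2.27%. With gene length offsets edgeR called 7, beside 0.409%, and without a filter 5 of 10, beside 0.19%. Limma on log2(TPM + 1) called 4, beside 0.159%. None was called higher without mutant C, beside 0.0793%. The 5 genes that passed the filter in both groups (Cpa3, Hdc, Slc18a2, Rab38 and Mitf) had a median log2 fold change of -2.03, beside -0.02 over all genes, and of -1.89 without mutant C, beside -0.01. None of these 5 was called lower with all libraries, beside 0.147% of genes, and all but Mitf were without mutant C, beside 0.761%. Over all 9 the median was -3.51 (-3.6 without mutant C), a value that the filter helped to set. In CPM every mutant library lay below every wild-type library for 7 of the 9, beside 11.4% of genes tested. Without mutant C that held in CPM for 8, beside 15.4%. In TPM with all libraries it held for 8, beside 23.8%. For Slc45a3, Ms4a2 and Cd200r3 the separation in CPM came with how they passed the filter. Of the 5 genes that passed in both groups, Cpa3, Hdc and Slc18a2 lay apart in CPM with all libraries. Each of them had an unadjusted p under 0.05 by edgeR's quasi-likelihood test, beside 4.8% of genes. Rab38 and Mitf overlapped in CPM and did not reach that p.

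Wild-type A was above F and L in several of the genes. Its CPM over the mean of F and L was 2.61 for Ms4a2, 2.06 for Slc45a3, 1.66 for Hdc, 1.41 for Il1rl1, 1.37 for Slc18a2 and 1.15 for Cd200r3, but 0.861 for Rab38, 0.827 for Cpa3 and 0.732 for Mitf. Neutrophil markers summed to 3680 TPM in wild-type A, against 2310 and 2250 in F and L; their part in these differences was not tested.

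Other genes of the same cells were counted from 6 lists: granule proteases, granule matrix and amine handling, IgE receptor chains and proximal signalling, IL-33 receptor signalling, other surface genes, and lipid mediators and cytokines. Of 91 genes listed, 90 were found and 63 tested. By edgeR's quasi-likelihood test with all libraries, 0 were called lower and 0 higher, beside 0.147% and 0.00818% of all genes. DESeq2 called 1 lower, beside 0.532% of all genes. Of the 63, 5 (7.94%) had an unadjusted p under 0.05, beside 4.8% of all genes, and the median log2 fold change was -0.04. With so few calls over all genes, 0 calls in a list of this size does not set it apart. Without mutant C, 1 of 65 was called lower and 0 higher, beside 0.761% and 0.0793% of all genes. That gene, Alox5, encodes 5-lipoxygenase, the first enzyme of leukotriene synthesis. It had 0.23, 0.94 and 1.07 TPM in mutants C, D and Q, against 8.83, 4.62 and 5.58 TPM in wild-type A, F and L, a log2 fold change of -2.7 (SE 0.36, adjusted p = 0.068) with all libraries and -2.5 (SE 0.3, adjusted p = 0.012) without mutant C, by edgeR's quasi-likelihood test. Its partner Alox5ap, the activating protein, had 182.65, 193.33 and 188.17 TPM in the mutants, against 190.24, 190.85 and 191.9 TPM in the wild types, and did not pass.

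Most granule proteases were at or near 0 in both groups. Of the 14 genes listed, which are proteases except for the protease inhibitor Serpinb1a, 9 were at 0 counts in every library and 11 never exceeded 3 counts. The 3 tested, the proteases Ctsg and Mcpt8 and the inhibitor Serpinb1a, had log2 fold changes of 0.91, 1.02 and 0.92 with all libraries and of -0.19, 0.09 and 0.16 without mutant C, and none passed. Mcpt8, a basophil protease, had 3.97, 2.63 and 2.74 TPM in mutants C, D and Q, against 3.32, 2.33 and 2.68 TPM in wild-type A, F and L. Serglycin (Srgn), the proteoglycan core of granules in many blood cells, had 601.48, 329.05 and 383.27 TPM in the mutants, against 466.09, 470.63 and 456.56 TPM in the wild types, and did not pass. Kit, the receptor for stem cell factor that mast cells need and that the gate selects, was lower in every mutant library, and did not pass (adjusted p = 0.58 with all libraries, 0.37 without mutant C, edgeR's quasi-likelihood test).

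Signalling genes downstream of the receptors gave no calls, as most genes did. Of 21 genes listed for the IgE receptor chains and their proximal signalling, 20 were tested and 0 were called by edgeR's quasi-likelihood test, beside 0.147% lower and 0.00818% higher over all genes, with 1 at an unadjusted p under 0.05, beside 4.8% of all genes, and a median log2 fold change of -0.14 (-0.03 without mutant C). Btk, the kinase that acts after receptor cross-linking, had 38.07, 139.66 and 117.66 TPM in mutants C, D and Q, against 134.78, 139.6 and 132.15 TPM in wild-type A, F and L. Vamp8, a vesicle fusion protein of degranulation, had 420.26, 225.84 and 231.44 TPM in the mutants, against 225.69, 247.55 and 253.59 TPM in the wild types. In both genes mutants D and Q lay near the wild types in TPM and mutant C did not. The CPM of Btk was 149, 186 and 175 in mutants C, D and Q, against 158, 185 and 178 in wild-type A, F and L. That of Vamp8 was 514, 94.1 and 108 in the mutants, against 82.7, 102 and 107 in the wild types. Of 8 genes listed for IL-33 receptor signalling, 7 were tested, with 0 called and 0 at an unadjusted p under 0.05, beside the same shares over all genes. Myd88, the adaptor of that receptor, had 16.58, 45.2 and 35.79 TPM in the mutants, against 42.67, 41.44 and 38.97 TPM in the wild types. Its CPM was 49.8, 46.3 and 41 in the mutants, against 38.4, 42.1 and 40.4 in the wild types, so mutant C was low in TPM only.

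Close relatives of some of the genes were counted as a list, and values are given for only a few relatives. Of 26 paralogs listed, 13 were tested. By edgeR's quasi-likelihood test on all libraries 0 were called, beside 0.147% lower and 0.00818% higher over all genes, and 1 had an unadjusted p under 0.05, beside 4.8%. The median log2 fold change was 0.58 (0.03 without mutant C), and 3 of the 13 were below 0 with all libraries. Limma-voom and DESeq2 each called 1 lower, beside 0.254% and 0.532% of genes. Voom with quality weights and edgeR with gene length offsets called the same 1, beside 2.27% and 0.409%. That gene, Cd200r4, another activating CD200 receptor, had 0.32, 0.82 and 0.85 TPM in mutants C, D and Q, against 3.88, 4.03 and 3.64 TPM in wild-type A, F and L. Its log2 fold change was -2 (SE 0.25, adjusted p = 0.054) with all libraries and -2.08 (SE 0.27, adjusted p = 0.017) without mutant C, by edgeR's quasi-likelihood test. Without mutant C it was the 1 called lower of 14 tested, beside 0.761% of all genes. Reads can be split between Cd200r3 and Cd200r4, so the share of each is uncertain. Some relatives outside the naming rule were chosen after their values were seen. Cd200r1, the inhibitory receptor, had 10.48, 16.1 and 15.26 TPM in the mutants, against 20.85, 24 and 20.01 TPM in the wild types. Its groups did not overlap in TPM, but neither fit passed (log2 fold change 0.03, adjusted p = 0.96 with all libraries; -0.33, adjusted p = 0.43 without mutant C, edgeR's quasi-likelihood test). Il1rap, the shared chain that pairs with ST2, had 1.96, 6.25 and 5.46 TPM in the mutants, against 6.77, 7.73 and 6.95 TPM in the wild types (log2 fold change -0.17, adjusted p = 0.63 with all libraries; -0.08, adjusted p = 0.84 without mutant C), and Rab32, the closest relative of Rab38, had 18.29, 35.51 and 30.4 TPM in the mutants, against 36.98, 30.7 and 32.8 TPM in the wild types (log2 fold change 0.35, adjusted p = 0.58 with all libraries; 0.11, adjusted p = 0.63 without mutant C), all by edgeR's quasi-likelihood test.

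Organelle trafficking genes other than Rab38 gave 0 calls among 22 tested with all libraries, beside 0.147% lower and 0.00818% higher over all genes. Of the 22, 1 had an unadjusted p under 0.05 by edgeR's quasi-likelihood test, beside 4.8% of all genes. Without mutant C, 1 of 22 was called lower, beside 0.761% of all genes. That gene was Rab27b, a GTPase that docks secretory granules at the plasma membrane. It had 1.2, 0.97 and 1.88 TPM in mutants C, D and Q, against 5.39, 6.48 and 5.9 TPM in wild-type A, F and L. Its log2 fold change without mutant C was -1.92 (SE 0.3, adjusted p = 0.039, edgeR's quasi-likelihood test). Its relative Rab27a had 19.02, 64.47 and 51.05 TPM in the mutants, against 65.33, 63.01 and 55.86 TPM in the wild types, and did not pass. In CPM Rab27a had 87.8, 101 and 89.8 in the mutants, against 90.4, 98.4 and 88.9 in the wild types. The MiT relatives of Mitf (Tfec, Tfe3 and Tfeb) gave 0 calls among 3, with 0 at an unadjusted p under 0.05, beside the same shares over all genes. Among 18 tested lineage transcription factors 0 were called with all libraries by edgeR's quasi-likelihood test, beside 0.147% lower and 0.00818% higher over all genes. Of the 18, 6 had an unadjusted p under 0.05 by that test, beside 4.8% of genes tested. Without mutant C, 4 were called lower (Gata1, Gata2, Ikzf2 and Zfpm1), beside 0.761% of all genes. Gata1 had 0.98, 1.12 and 1.22 TPM in the mutants, against 35.38, 20.9 and 25.16 TPM in the wild types (log2 fold change -4.06, SE 0.47, adjusted p = 0.054 with all libraries; -4.61, SE 0.25, adjusted p = 0.00066 without mutant C, edgeR's quasi-likelihood test).

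**Figure D4:**
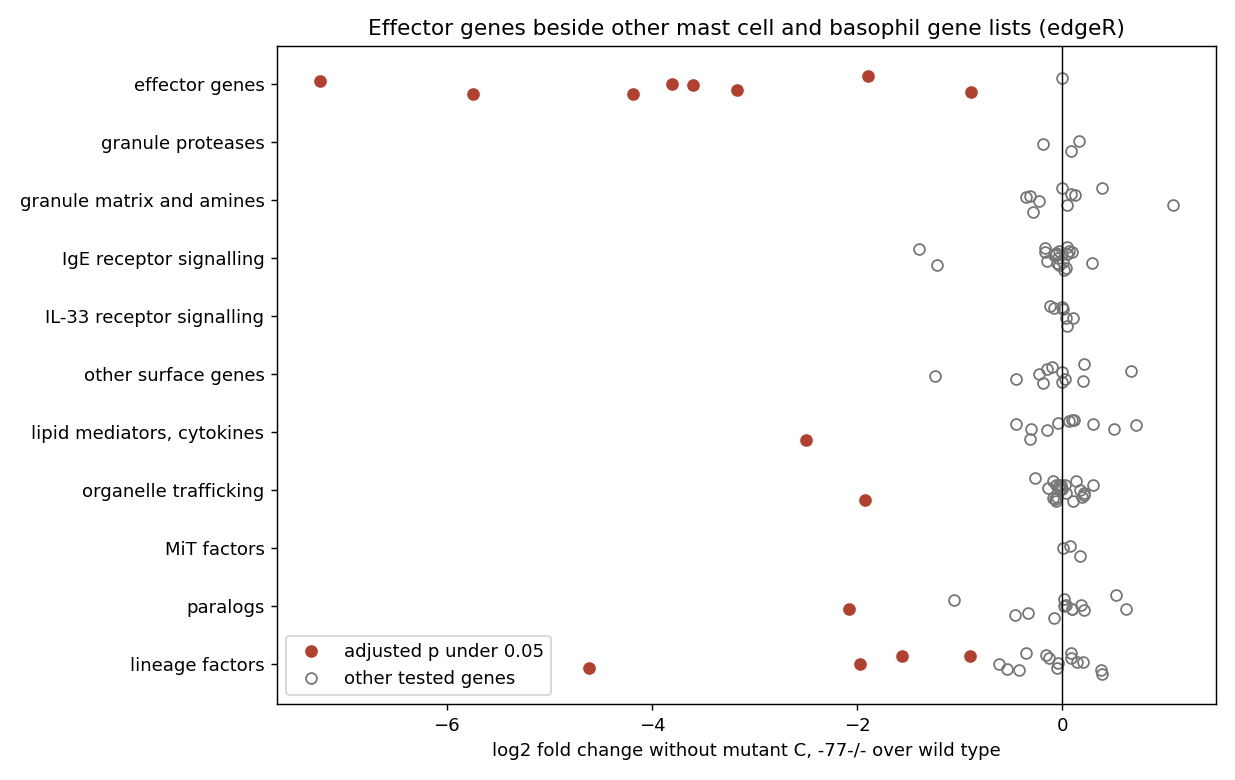
Log2 fold change without mutant C (-77-/- over wild type) of each tested gene in the effector list and 10 lists of related genes; each point is a gene, filled where the adjusted p is under 0.05 (edgeR). In the effector row 8 of 9 points are filled; the 6 lists pooled as other mast cell and basophil genes hold 1 filled point, Alox5.

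Markers of other cells the gate could hold were read beside these values. Of 10 eosinophil markers, 6 never exceeded 3 counts and 3 were tested; the list summed to 4.45, 9.24 and 9.35 TPM in mutants C, D and Q, against 25.4, 18.2 and 17.6 TPM in wild-type A, F and L. Siglecf, a sialic acid-binding lectin of eosinophils, fell without mutant C (log2 fold change -0.94, SE 0.12, adjusted p = 0.014, edgeR's quasi-likelihood test). It was the 1 gene called lower of the 3 tested, beside 0.761% of all genes. Of 8 melanocyte markers, which share Mitf and Rab38 with mast cells, 3 were at 0 everywhere and 5 never exceeded 3 counts, and the list summed to 3.57, 7.58 and 7.11 TPM in the mutants, against 8.5, 7.97 and 6.32 TPM in the wild types. Erythroid markers summed to 58, 100 and 92.9 TPM in the mutants, against 228, 210 and 192 TPM in the wild types; megakaryocyte markers, which include Itga2b (CD41) of the cocktail that the sort excluded, summed to 17.2, 54.7 and 48 TPM in the mutants, against 117, 102 and 102 TPM in the wild types. Monocyte and macrophage markers summed to 1010, 762 and 636 TPM in the mutants, against 631, 673 and 664 TPM in the wild types. With all libraries 0 of 8 were called by edgeR's quasi-likelihood test, beside 0.147% lower and 0.00818% higher over all genes. Of the 8 markers, 1 had an unadjusted p under 0.05 by that test, beside 4.8% of all genes. Among them Tyrobp, a signalling adaptor, had 674.7, 378.64 and 330.88 TPM in the mutants, against 249.58, 309.64 and 305.93 TPM in the wild types. It did not pass with all libraries (log2 fold change 1.7, SE 0.7, adjusted p = 0.58) or without mutant C (0.42, SE 0.14, adjusted p = 0.37), by edgeR's quasi-likelihood test. Neutrophil markers summed to 1030, 2480 and 2260 TPM in the mutants, against 3680, 2310 and 2250 TPM in the wild types. By edgeR's quasi-likelihood test 0 of 6 were called and 0 had an unadjusted p under 0.05, beside the same shares over all genes. Of 10 erythroid markers tested, 2 fell with all libraries (Epor and Aqp1), and of 8 megakaryocyte markers 3 fell (Itga2b, Gp5 and Treml1), beside 0.147% of all genes. An unadjusted p under 0.05 by edgeR's quasi-likelihood test was seen for 7 erythroid and 6 megakaryocyte markers, beside 4.8% of all genes. Without mutant C, 6 erythroid and 4 megakaryocyte markers were called lower, beside 0.761%. Hepatoblast markers summed to 90.2, 82.1 and 542 TPM in the mutants, against 99.9, 47 and 25.8 TPM in the wild types, with mutant Q highest. Of 10 tested, 0 were called with all libraries, beside 0.147% lower and 0.00818% higher over all genes. An unadjusted p under 0.05 by edgeR's quasi-likelihood test was seen for 7, beside 4.8% of all genes. Their median log2 fold change was 2.89 (2.97 without mutant C), and 0 of the 10 were below 0 with all libraries. The 10 effector genes summed to 22.8, 29.2 and 28 TPM in mutants C, D and Q. The part of these cell types in the effector gene differences was not tested.

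The genes whose pattern over the 6 libraries was most like the effector genes were ranked, among genes with a mean of at least 50 counts, by Pearson's r between their log2 CPM and the mean of the 9 tested genes. They were Cnr2 (r = 0.998), Itga2b, Samd14 and Muc13 (each 0.996), Dach1 (0.995) and Epor (0.994), over 6 libraries that fall into 2 genotype groups, so the values describe the group difference and carry no p. For all 6, every mutant library lay below every wild-type library in CPM, beside 11.4% of genes tested, a separation that ranking by this pattern favours. Itga2b had 7.82, 7.94 and 8.12 CPM in mutants C, D and Q, against 37.4, 26.2 and 30.7 CPM in wild-type A, F and L, and Cnr2 had 7.82, 7.74 and 8.15 CPM in the mutants, against 19.1, 17.4 and 18.7 CPM in the wild types. In CPM, mutant C over the mean of mutants D and Q was 0.974 for Itga2b and 0.984 for Cnr2, and for the effector genes it ran between 0 (Slc45a3 and Cd200r3) and 5.13 (Ms4a2, on 4 counts), with 2.95 for Cpa3, 2.72 for Rab38, 1.77 for Hdc, 0.685 for Slc18a2, 0.588 for Mitf and 0.155 for Il1rl1.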

How the data were processed

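RNA sequencing of 6 libraries (3 mutant and 3 wild type) was analysed. Expected counts, the reads RSEM assigned to each gene, and TPM were deposited by the authors, per the file headers; deposited FPKM was not used for any result, and the deposited length column gave mean transcript lengths. The build and tools, per the submitters' processing notes, were mm10, RSEM 1.2.18, Bowtie 1.1.1 and CASAVA 1.8.2. For annotation release, read layout and strand, nothing is given in the sources used here. Ensembl identifiers were matched to symbols (367 of 24815 had none); positions came from GENCODE M21 and promoters from RefSeq. Each SE was derived from the F statistic, as the size of the log2 change over the root of F.

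Expected counts were rounded and fitted over all genes with edgeR 4.0.16 in R 4.3.3 (filterByExpr with a minimum count of 10, TMM, quasi-likelihood F test, Benjamini-Hochberg over all genes, threshold 0.05). The code was tested on simulated data. Alternatives were size factors and tests of DESeq2 1.42.0, limma 3.58.1 (voom, with and without quality weights, and log2(TPM + 1)), no filter, gene length offsets, and leaving out each library. The members and lists were chosen with earlier results of these data known. Named genes were the 10 members, Gata2, Gata1, called genes and the 3 most abundant of each other list, where the text needs them, and the 6 nearest by correlation.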

Additional observations from a re-analysis of the deposited data

How the results depend on the processing

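The 7 effector genes other than Rab38 and Mitf were lower in the mutant under all 13 alternatives, and the number called moved between them. Effector genes called lower numbered 1 in the main analysis, 7 (of 10, with Fcer1a) with DESeq2, 4 with limma-voom, 8 with quality weights, 5 (of 10) without a filter, 4 with log2(TPM + 1), 7 with length offsets and 0 to 8 on leaving out 1 library (8 without mutant C, 0 without any other library, where 7 had an unadjusted p under 0.05, beside 2.41% to 13% of all genes). All genes called numbered 19, against 124, 32, 357, 36 and 54 with DESeq2, voom, quality weights, no filter and length offsets, and 0 to 106 on leaving out 1 library. The median log2 fold change of the effector genes was -3.51, against -3.14 with DESeq2 (-3.46 over the 9 genes of the main analysis), -3.8 with voom, -3.19 without a filter (-3.53 over those 9), -2.55 with log2(TPM + 1), -3.88 with length offsets and -3.6 to -3.22 on leaving out 1 library. Other mast cell and basophil genes called lower numbered 0, beside 0.147% of all genes. They numbered 1 with DESeq2, beside 0.532%, and 3 with quality weights (Itga2, Alox5 and Stx11), beside 2.27%. They numbered 1 without a filter, beside 0.19%, and 1 with length offsets, beside 0.409%. On leaving out 1 library they numbered 0 to 1, beside 0% to 0.761%. Reversed were Mitf, at 0.08 with length offsets, and Rab38, at 0.02 without mutant D (-0.89 to 0.02 over the libraries left out); neither was called in that setting. The causes were not tested. Quality weights put mutant C at 0.0428, against 0.644 to 3.45 for the others. No paired analysis was possible because the library letters differ between the groups. Depth limits Fcer1a, Slc45a3, Ms4a2 and Cd200r3, whose mutant counts were 0 to 6 per library.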
